A study of Mus musculus with 29 samples.

Results

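Erythroid genes were followed in macrophages sorted from the spleen and liver of mice with and without RNase T2, the endosomal enzyme that degrades RNA. The genes were named by symbol, with no measured value used to choose them: the adult globin chains Hba-a1 and Hbb-b1, the heme enzyme Alas2, the membrane transporter Slc4a1, the carbonic anhydrases Car1 and Car2, the receptor Epor and the transcription factors Klf1 and Gata1. 7 of these 9 symbols matched a row among the 23930 genes of the deposited table, and Hba-a1 and Hbb-b1 were not analysed here. Values are in RPM (reads of a gene scaled to a common total per library) from targeted sequencing of cDNA amplicons, with a single amplicon for each gene, so levels can be compared between libraries but not between genes.

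The 29 libraries fall into 9 groups of mouse cells, all on the C57BL/6 background and with both sexes in use. Rnaset2-/- mice carry a germline double knockout of the gene pair that encodes RNase T2, and wild-type (WT) mice carry none. From the spleen and the liver of each genotype, Ly6Chi and Ly6Clow CD11b+ macrophages were sorted after exclusion of Ly6G+, SiglecF+ and NK1.1+ cells, the Ly6Clow gate also requiring Fcgr4. Each of these 8 groups had 3 libraries, except splenic Ly6Clow cells of Rnaset2-/- mice, which had 4. Kupffer cells (KCs), the resident macrophages of the liver sinusoids, were sorted from WT mice as F4/80+ CD11b-intermediate Tim4+ cells in 4 libraries, and no Rnaset2-/- KCs were analysed here. These gates are those of the labels; the study's methods give a liver stain with neither Tim4 nor the 3 excluded markers, and KCs as F4/80+ cells low in CD11b. For the spleen, the study's methods describe magnetic depletion of lineage-positive cells before the sort, including cells that carry the erythroid antigen TER-119. No such step is described for the liver. The labels do not say that libraries of a group came from separate animals, so p-values measure the spread between these libraries, which may be technical.

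Red cells arise from progenitors that depend on erythropoietin and its receptor Epor. The transcription factors Gata1 and Klf1 switch on the erythroid program, including Alas2, the first and rate-limiting enzyme of heme synthesis in erythroid cells, and Slc4a1 (band 3), the chloride-bicarbonate exchanger of the red cell membrane. Car1 and Car2 are cytosolic carbonic anhydrases that interconvert carbon dioxide and bicarbonate; Car1 marks early erythroid progenitors, whereas Car2 is also found in many other cells, osteoclasts among them. Macrophages of the spleen and liver engulf aged red cells, and macrophages also form the centre of erythroblastic islands.

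In the mm10 build named by the labels, Alas2 lies at chrX:150547375-150570638 on the + strand and Gata1 at chrX:7959260-7978071 on the - strand. Car1, at chr3:14766216-14808368 on the - strand, neighbours Car2, at chr3:14886273-14900770 on the + strand. Slc4a1 lies at chr11:102348824-102366203 (-), Epor at chr9:21958897-21963506 (-) and Klf1 at chr8:84901928-84905291 (+). The promoter windows of Alas2, Epor and Gata1 are shown because Alas2 and Gata1 moved apart across the groups while Epor was highest in KCs. Each window runs from 250 bases before to 50 bases after the start in the RefSeq annotation of GRCm38.p6, with capitals marking matches to AGATAA or TGATAA, the letters bound by GATA factors, on either strand. The windows are chrX:150547167-150547466 (+) for Alas2, chr9:21963527-21963826 (-) for Epor and chrX:7967861-7968160 (-) for Gata1. The gene positions above come from the GENCODE annotation, and the starts of both sources can differ. Against those positions the Epor window lies wholly before the gene, and the Gata1 window lies inside it.
Alas2: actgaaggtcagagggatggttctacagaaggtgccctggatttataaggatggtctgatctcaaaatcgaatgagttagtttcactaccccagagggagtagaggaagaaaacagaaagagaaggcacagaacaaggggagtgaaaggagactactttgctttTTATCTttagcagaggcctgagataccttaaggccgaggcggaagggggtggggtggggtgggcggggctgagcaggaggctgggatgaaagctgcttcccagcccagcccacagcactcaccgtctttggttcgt
Epor: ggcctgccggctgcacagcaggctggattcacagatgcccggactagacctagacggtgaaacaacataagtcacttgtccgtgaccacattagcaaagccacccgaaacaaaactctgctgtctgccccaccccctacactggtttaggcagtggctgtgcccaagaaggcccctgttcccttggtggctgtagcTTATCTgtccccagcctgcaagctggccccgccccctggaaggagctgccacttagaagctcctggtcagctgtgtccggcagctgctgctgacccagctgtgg
Gata1: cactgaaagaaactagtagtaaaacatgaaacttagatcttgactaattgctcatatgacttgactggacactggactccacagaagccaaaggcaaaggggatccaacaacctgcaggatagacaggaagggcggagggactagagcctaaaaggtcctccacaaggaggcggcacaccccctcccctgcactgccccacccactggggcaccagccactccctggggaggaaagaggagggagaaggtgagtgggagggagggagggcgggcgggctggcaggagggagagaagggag

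The Alas2 window held 1 such match, beginning at -86 from the start, and the Epor window held 1, beginning at -54. No match was found in the Gata1 window, which covers a start inside the gene span given above and not its outer end. Of all 32851 promoter windows in the RefSeq table, 18.6% held a match. The letters CACCC, found in sites of Klf1 and related factors, occurred on either strand 3 times in the Alas2 window, 2 times in the Epor window and 2 times in the Gata1 window, against at least 1 match in 57.5% of all windows. No base was shared between the matches to both motifs.

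Library depth ranged from 11175843 to 21167602 reads, so 3 reads correspond to 0.142 to 0.268 RPM, and any lower level cannot be told from 0. The genes encoding RNase T2 were not analysed here, so genotype labels were not checked against the targeted transcripts. Macrophage and monocyte genes were abundant in all libraries, with the 11 measured genes of that list summing to 5641 to 37754 RPM, whereas adult globins were not analysed here and 4 other genes of the globin list summed to at most 2.62 RPM. Xist stood at 0 to 0.154 RPM in the 6 liver Rnaset2-/- libraries, where 4 Y-linked genes summed to 150.1 to 291 RPM. In the 6 liver WT libraries Xist stood at 321 to 539 RPM, and in replicates 2 and 3 of both subsets the Y-linked genes were also measured, at 28.95 to 52.0 RPM. Genotype and sex thus cannot be told apart in the liver. Alas2 and Gata1 are X-linked. In the spleen, all libraries but replicate 2 of Rnaset2-/- Ly6Clow cells, at 0.781 RPM of Xist, had the female pattern. Replicate 1 of the same group stood apart in Alas2 and Slc4a1, and results that rest on it are given with and without it.

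A gene was tested where at least 3 of the libraries compared reached 1 RPM. It is said to have risen or fallen where limma, on log2(RPM + 1) values after scaling between libraries, gave a fold change above 1.5 and a Benjamini-Hochberg adjusted p below 0.05 over all genes tested. Differences on this scale understate the change of genes near 0. Klf1 reached 1 RPM in no library and was never tested. In sorted bulk libraries, more cells of a type and more RNA per cell cannot be told apart.

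Alas2, the heme enzyme, was at most 1.22 RPM in the Ly6Chi and Ly6Clow macrophages of WT mice and was present in 4 groups: KCs, both liver subsets of Rnaset2-/- mice, and splenic Ly6Clow cells of Rnaset2-/- mice. In the spleen, WT Ly6Chi libraries held 0.555, 0.069 and 0.07 RPM, WT Ly6Clow libraries 0.21, 0.206 and 0 RPM, and Rnaset2-/- Ly6Chi libraries 0.047, 0.294 and 0.617 RPM. The 4 Rnaset2-/- Ly6Clow libraries of the spleen held 266, 21.8, 7.09 and 12.8 RPM, all above every WT library, with replicate 1 over 10 times the next. In the liver, WT Ly6Chi libraries held 0, 0.167 and 0 RPM and WT Ly6Clow libraries 0.083, 1.22 and 0.805 RPM. The corresponding Rnaset2-/- libraries held 145.3, 13.2 and 84.9 RPM in Ly6Chi cells and 85.0, 31.8 and 80.1 RPM in Ly6Clow cells. KCs of WT mice held 51.5, 27.5, 181 and 55.7 RPM, in the same range as the liver Rnaset2-/- cells. The means of the 4 high groups, 65.6 to 81.1 RPM, lay within the spread of each group, and the ranges of neighbours in this order overlapped; below them, the next group, liver WT Ly6Clow cells, stood at 0.703 ± 0.575 RPM (SD, n = 3) without overlap.

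By limma, Alas2 was higher in Rnaset2-/- than in WT cells by 5.57 ± 0.78 on the log2 scale (SE) in liver Ly6Chi macrophages (adjusted p = 0.00231) and by 5.19 ± 0.44 in liver Ly6Clow macrophages (adjusted p = 8.17e-05). In splenic Ly6Clow macrophages it was higher by 4.66 ± 0.99 (adjusted p = 0.0248), and without replicate 1 by 3.60 (adjusted p = 0.000348). That call was lost without Rnaset2-/- replicate 2, the male-pattern library (4.78, adjusted p = 0.0582), and without WT replicates 1, 2 or 3 (adjusted p = 0.0753, 0.102 and 0.105). Splenic Ly6Chi macrophages were below the filter in both genotypes, and Alas2 was not tested there.

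Slc4a1, the band 3 exchanger, followed a like order with lower values in KCs. Splenic WT Ly6Chi libraries held 2.22, 2.15 and 2.45 RPM and WT Ly6Clow libraries 0.28, 1.24 and 0.351 RPM. In Rnaset2-/- mice, the splenic Ly6Chi libraries held 0.236, 1.32 and 0.76 RPM, and the Ly6Clow libraries 321, 36.3, 17.8 and 25.2 RPM. Replicate 1 was again the highest of these 4, and both genotypes were separate in each splenic subset, with the Rnaset2-/- libraries lower in Ly6Chi and higher in Ly6Clow cells. In the liver, WT libraries held 0, 1.502 and 1.25 RPM in Ly6Chi and 0.745, 2.88 and 0.179 RPM in Ly6Clow cells. Rnaset2-/- libraries of the liver held 54.3, 8.19 and 18.8 RPM in Ly6Chi and 43.3, 13.5 and 22.0 RPM in Ly6Clow cells, all above the WT libraries. KCs held 12.1, 4.58, 16.9 and 8.30 RPM, between the liver Rnaset2-/- and WT cells in mean and overlapping the former only.

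Slc4a1 was higher in Rnaset2-/- cells by 3.39 ± 0.69 in liver Ly6Chi (adjusted p = 0.00957), by 3.58 ± 0.53 in liver Ly6Clow (adjusted p = 0.00116) and by 4.98 ± 0.83 in splenic Ly6Clow macrophages (adjusted p = 0.0122). Without replicate 1 the splenic Ly6Clow difference was 4.09 (adjusted p = 7.16e-05), and without replicate 2 it was 5.12 (adjusted p = 0.0312). The call was lost without WT replicate 2 (adjusted p = 0.0529) or WT replicate 3 (adjusted p = 0.0659). In splenic Ly6Chi macrophages Slc4a1 was lower in Rnaset2-/- mice, with a log2 difference of -0.86 ± 0.24 (adjusted p = 0.0184). Leaving out any of the 3 WT libraries took this p to 0.0752, 0.0668 and 0.0824, and the fit of all 29 libraries gave 0.603.

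Car1, the carbonic anhydrase of early erythroid progenitors, was high in both WT macrophage subsets of the spleen, unlike Alas2 and Slc4a1. WT Ly6Chi libraries held 101, 99.4 and 103 RPM and WT Ly6Clow libraries 44.2, 94.7 and 37.0 RPM. Rnaset2-/- Ly6Chi libraries held 2.36, 7.40 and 5.37 RPM, a mean of 5.04 ± 2.53 against 101.4 ± 1.93 RPM in WT (SD, n = 3 each), with no overlap. Rnaset2-/- Ly6Clow libraries of the spleen held 260.5, 144, 23.1 and 17.1 RPM, so that 2 lay above all WT libraries and 2 below. In the liver, WT libraries held 0.463, 2.09 and 0.447 RPM in Ly6Chi and 0.083, 0.61 and 0.895 RPM in Ly6Clow cells. Rnaset2-/- libraries held 33.1, 26.9 and 20 RPM in Ly6Chi and 7.08, 2.72 and 5.28 RPM in Ly6Clow cells, above WT in both. KCs held 0.573, 1.41, 3.49 and 1.76 RPM and overlapped the liver WT subsets.

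Car1 fell by 4.07 ± 0.28 on the log2 scale in splenic Ly6Chi macrophages of Rnaset2-/- mice (adjusted p = 5.02e-06) and rose by 3.64 ± 0.38 in liver Ly6Chi macrophages (adjusted p = 0.000837) and by 1.92 ± 0.37 in liver Ly6Clow macrophages (adjusted p = 0.00414). In splenic Ly6Clow macrophages the difference was 0.23 ± 0.87 (adjusted p = 0.884, 95% interval -1.74 to 2.19), and its sign turned without Rnaset2-/- replicate 1 (-0.42), Rnaset2-/- replicate 2 (-0.16) or WT replicate 3 (-0.03).

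Car2, the carbonic anhydrase with the broader distribution, was measured at over 1 RPM in all 29 libraries. In WT spleen it stood at 41.1, 36.9 and 36.6 RPM in Ly6Chi and at 19.4, 29.5 and 15.5 RPM in Ly6Clow cells. In Rnaset2-/- spleen it stood at 3.78, 7.01 and 9.26 RPM in Ly6Chi and at 339, 138, 32.2 and 35.1 RPM in Ly6Clow cells. The 4 Ly6Clow libraries were all above the WT ones, although replicates 3 and 4 exceeded the highest of them by little. In WT liver it stood at 2.39, 2.50 and 1.70 RPM in Ly6Chi and at 2.65, 1.92 and 2.68 RPM in Ly6Clow cells. In Rnaset2-/- liver it stood at 58.3, 41.9 and 50.6 RPM in Ly6Chi and at 24.6, 11.3 and 17.3 RPM in Ly6Clow cells. KCs held 31.0, 39.9, 70.0 and 33.5 RPM, a range that overlapped liver Rnaset2-/- Ly6Chi cells and lay above both liver WT subsets.

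Car2 fell by 2.31 ± 0.24 in splenic Ly6Chi macrophages of Rnaset2-/- mice (adjusted p = 7.2e-05) and rose by 3.73 ± 0.25 in liver Ly6Chi (adjusted p = 0.00016) and by 2.37 ± 0.31 in liver Ly6Clow macrophages (adjusted p = 0.000602). The splenic Ly6Clow difference of 2.004 ± 0.72 did not pass (adjusted p = 0.108, 95% interval 0.36 to 3.64). It passed in the fit of all libraries (adjusted p = 0.0102) and by DESeq2 on the recovered reads (adjusted p = 0.0253).

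Epor, the erythropoietin receptor, was highest in KCs, at 15.6, 20.05, 14.3 and 21.2 RPM, with a mean of 17.8 ± 3.36 RPM (SD, n = 4) and no overlap with the next group. The next were splenic Rnaset2-/- Ly6Clow cells, at 11.2, 5.96, 1.92 and 2.40 RPM. Liver Rnaset2-/- cells held 2.07, 4.48 and 6.08 RPM in Ly6Chi and 5.70, 3.66 and 6.51 RPM in Ly6Clow cells, overlapping the splenic Rnaset2-/- Ly6Clow group. WT spleen held 2.36, 2.01 and 1.89 RPM in Ly6Chi and 1.68, 2.27 and 1.83 RPM in Ly6Clow cells, a narrow range in which the subsets overlapped. Liver WT cells were lower still, at 0, 0.167 and 0 RPM in Ly6Chi and 0.166, 1.13 and 0.626 RPM in Ly6Clow cells. In Rnaset2-/- spleen, the Ly6Chi libraries held 0, 0.441 and 0.285 RPM, from 0, 9 and 6 reads, and all lay below the WT libraries.

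Epor fell by 1.27 ± 0.21 in splenic Ly6Chi macrophages of Rnaset2-/- mice (adjusted p = 0.000993), rose by 2.08 ± 0.32 in liver Ly6Chi macrophages (adjusted p = 0.00324) and rose by 1.92 ± 0.33 in liver Ly6Clow macrophages (adjusted p = 0.00242). In splenic Ly6Clow macrophages the difference was 0.89 ± 0.44 (adjusted p = 0.218, 95% interval -0.12 to 1.90).

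Gata1, the GATA factor of erythroid, megakaryocytic, mast cell and eosinophil lineages, was highest in splenic Rnaset2-/- Ly6Clow cells, at 12.3, 8.94, 2.48 and 3.03 RPM, and in WT splenic Ly6Chi cells, at 5.48, 4.44 and 3.71 RPM. WT splenic Ly6Clow libraries held 1.47, 1.72 and 1.19 RPM and Rnaset2-/- splenic Ly6Chi libraries 0.803, 1.47 and 0.617 RPM. In both splenic subsets the genotypes were separate. Liver Rnaset2-/- Ly6Chi libraries held 2.38, 1.62 and 1.54 RPM and Ly6Clow libraries 1.16, 0.156 and 0.077 RPM. In WT liver the Ly6Chi libraries held 0, 0.167 and 0.179 RPM and the Ly6Clow libraries were all at 0 reads. KCs held 0.164, 0.083, 0.961 and 0 RPM, so the cells with high Alas2, Car2 and Epor in WT liver had Gata1 at 11 reads or fewer. Klf1, the erythroid zinc finger factor, stood at 0.923 RPM or less everywhere. In splenic Rnaset2-/- Ly6Clow cells it held 0.711, 0.923, 0.284 and 0.211 RPM, from 10, 13, 4 and 3 reads, a range that overlapped WT splenic Ly6Clow cells, at 0.137 to 0.349 RPM, and WT splenic Ly6Chi cells, at 0.139 to 0.49 RPM.

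Gata1 fell by 1.43 ± 0.22 in splenic Ly6Chi macrophages of Rnaset2-/- mice (adjusted p = 0.000772) and rose by 1.23 ± 0.28 in liver Ly6Chi macrophages (adjusted p = 0.0143). The latter call was lost without WT replicate 1 (adjusted p = 0.0545). In splenic Ly6Clow macrophages the difference of 1.42 ± 0.44 did not pass (adjusted p = 0.0762, 95% interval 0.42 to 2.42), but it passed without Rnaset2-/- replicate 3 (adjusted p = 0.0431), in the fit of all libraries (adjusted p = 0.00719) and by DESeq2 (adjusted p = 0.00272). In liver Ly6Clow macrophages Gata1 was not tested.

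**Figure D1:**
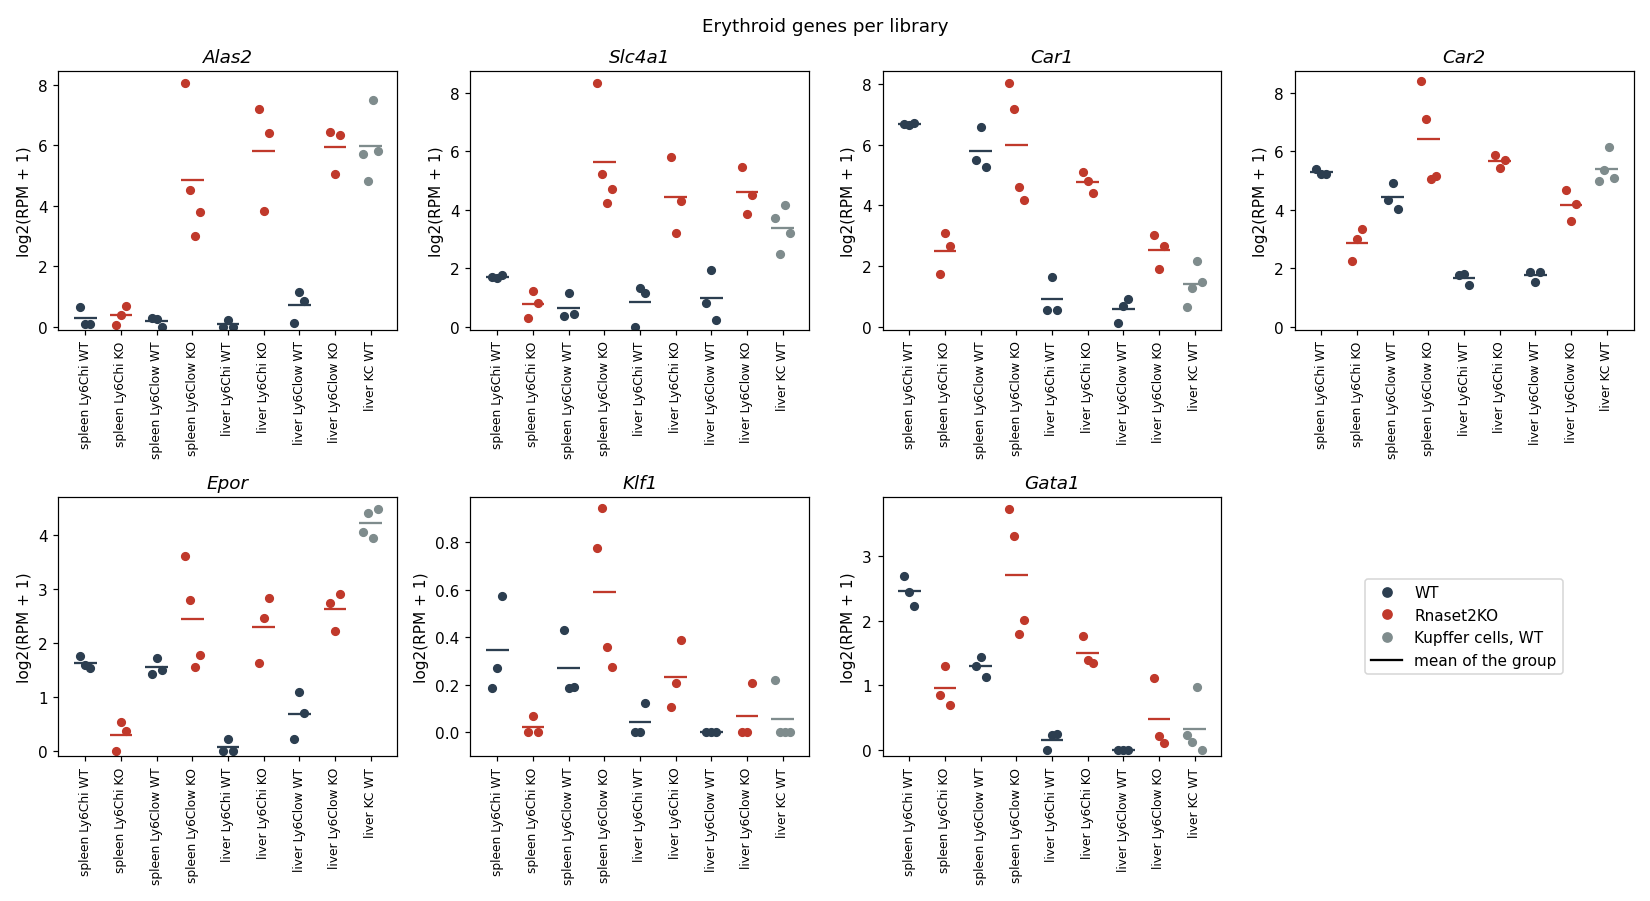
Level of each gene as log2(RPM + 1) on the vertical axis, with the 9 groups on the horizontal axis, a point for each library and a bar for each group mean. Alas2 is near 0 in all WT Ly6Chi and Ly6Clow groups and high in KCs and in 3 Rnaset2-/- groups, whereas Car1 is high in WT spleen and near 0 in KCs.

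The genotype comparison asked how macrophages of the same gate differed in mice that lack RNase T2. In splenic Ly6Chi macrophages, 5 of the 7 genes were tested and all 5 were lower in Rnaset2-/- mice, where 12.5% of all genes tested were called lower. Of these 5, Epor passed the filter through the WT libraries alone. The WT libraries of this subset differed less from each other than those of any other group. The p-values rest in part on that narrow spread, which may be technical. In splenic Ly6Clow macrophages 6 were tested and 2, Alas2 and Slc4a1, were higher, against 4.05% of all genes called higher, and Alas2 passed the filter through the Rnaset2-/- libraries alone. For 4 of the 7 genes (Alas2, Slc4a1, Car2 and Gata1) all 4 Rnaset2-/- libraries lay above all 3 WT libraries, as they did for 14.3% of all genes tested. The count of 2 calls was 0 without WT replicate 2 or 3, and 1 without WT replicate 1 or Rnaset2-/- replicate 2.

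In liver Ly6Chi macrophages 6 of the 7 genes were tested and all 6 were higher in Rnaset2-/- mice, against a background of 15.7%; Alas2, Epor and Gata1 passed the filter through the Rnaset2-/- libraries alone. With any 1 of the 3 Rnaset2-/- libraries left out the count was 3, since those 3 genes then had too few libraries for the filter. In liver Ly6Clow macrophages 5 were tested and all 5 were higher, against 20.2% of all genes, Car1 having passed through the Rnaset2-/- libraries alone. The values of both liver comparisons carry the sex difference given above. For single genes, the exact two-sided permutation test cannot go below p = 0.1 for 3 against 3 libraries or p = 0.0571 for 4 against 3. Over the 28 such genotype tests the lowest adjusted p was 0.127.

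**Figure D2:**
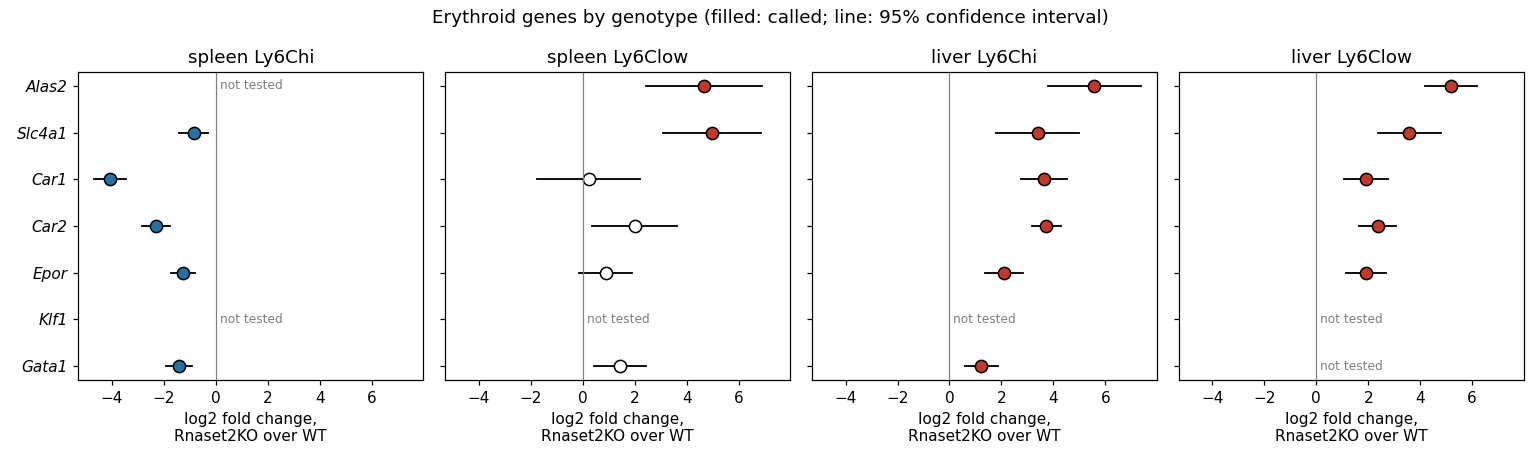
Difference between Rnaset2-/- and WT libraries on the log2(RPM + 1) scale (horizontal axis) for each gene tested, in 4 panels for the 4 macrophage groups, with 95% confidence intervals and filled points for calls. The 5 genes tested in splenic Ly6Chi cells lie below 0, and those tested in both liver subsets lie above 0.

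The genotype differences themselves differed between organs in Ly6Chi cells. The change in liver minus the change in spleen, tested as an interaction, was above 0 for all 6 genes tested, where 17.6% of all genes passed in that direction; Alas2 passed the filter through the liver Rnaset2-/- libraries alone. Car1 had an interaction of 7.75 ± 0.53 (adjusted p = 7.73e-07) and Car2 of 6.08 ± 0.37 (adjusted p = 3.48e-07). For Alas2 the value was 5.54 (adjusted p = 0.00071), for Slc4a1 4.29 (adjusted p = 0.00174), for Epor 3.38 (adjusted p = 3.92e-05) and for Gata1 2.68 (adjusted p = 0.000134). The sex difference between the genotypes in the liver enters these values. Depletion of cells with the erythroid antigen, described for the spleen alone, also cannot be told apart from the organ. In Ly6Clow cells none of the 6 interactions with organ passed by limma, where 26.8% of all genes passed in either direction, with adjusted p from 0.216 to 0.796 and wide intervals, for instance -2.12 to 3.27 for Alas2. No gene had an unadjusted p below 0.05 there, and edgeR and DESeq2 called 0, DESeq2 giving Alas2 no adjusted p. The limma count was 1 without replicate 1 of splenic Rnaset2-/- Ly6Clow cells.

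Within the spleen, the subsets also differed in the genotype change. The change in Ly6Clow minus that in Ly6Chi cells was above 0 for all 6 genes tested, against 8.35% of all genes, and Alas2 passed the filter through the Rnaset2-/- Ly6Clow libraries alone. Its values were 4.56 for Alas2 (adjusted p = 0.0224), 5.83 for Slc4a1 (adjusted p = 0.00329), 4.27 for Car1 (adjusted p = 0.0194), 4.29 for Car2 (adjusted p = 0.0081), 2.13 for Epor (adjusted p = 0.0203) and 2.83 for Gata1 (adjusted p = 0.00575). Within the liver none of the 6 passed in the same limma test, where 10.3% of all genes did, the nearest being Car2 at -1.35 (adjusted p = 0.0511, 95% interval -2.22 to -0.48) and Car1 at -1.71 (adjusted p = 0.0769, 95% interval -2.94 to -0.48). These 2 had an unadjusted p below 0.05, and edgeR and DESeq2 called 0, DESeq2 giving Gata1 no adjusted p. Without scaling between libraries both passed (adjusted p = 0.0219 for Car2 and 0.0436 for Car1), and with the replicate number as a block Car2 did (adjusted p = 0.0371).

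The comparison of Ly6Clow with Ly6Chi cells asked how the genes follow the 2 gates within a genotype. In WT spleen, 4 of 5 genes tested were lower in Ly6Clow cells, against 19.8% of all genes. The log2 differences were -0.98 for Slc4a1 (adjusted p = 0.00555), -0.76 for Car1 (adjusted p = 0.0406), -0.71 for Car2 (adjusted p = 0.0128) and -1.06 for Gata1 (adjusted p = 8.42e-04). Epor differed by 0.02 (adjusted p = 0.944, 95% interval -0.37 to 0.40). The count was 2 without Ly6Chi replicate 1 or without Ly6Clow replicate 3, and 1 (Gata1) in the fit of all libraries.

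In Rnaset2-/- spleen the order of the subsets was the opposite. All 6 genes tested were higher in Ly6Clow cells, against 13.0% of all genes, with Alas2 and Epor passing the filter through the Ly6Clow libraries alone. The differences were 4.47 for Alas2 (adjusted p = 0.0119), 4.85 for Slc4a1 (adjusted p = 0.0044), 3.51 for Car1 (adjusted p = 0.0176), 3.58 for Car2 (adjusted p = 0.00903), 2.13 for Epor (adjusted p = 0.0102) and 1.76 for Gata1 (adjusted p = 0.0204). No gene of the 7 had overlapping ranges between these groups, the Ly6Clow libraries being the higher, as they were without overlap for 20.7% of all genes tested. The WT and Rnaset2-/- differences each share libraries with the interaction above and are no further evidence for it.

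In WT liver 2 genes, Slc4a1 and Car2, were tested between the subsets and neither passed, where 10.1% of all genes did (adjusted p = 0.936 and 0.98); edgeR and DESeq2 called 0 as well, and neither had an unadjusted p below 0.05. In Rnaset2-/- liver 2 of 6 genes tested were lower in Ly6Clow cells, against 8.26% of all genes: Car1 by -2.09 (adjusted p = 0.0152) and Car2 by -1.34 (adjusted p = 0.0352). Gata1 differed by -0.95 (adjusted p = 0.115), and it passed with the replicate number as a block (adjusted p = 0.0374), as did Car1 (adjusted p = 0.00303) and Car2 (adjusted p = 0.00426). Alas2, Slc4a1 and Epor differed by 0.28, 0.34 and 0.47 (adjusted p = 0.849, 0.771 and 0.376). Without the block, the count of 2 was 0 without Ly6Chi replicate 2, and 1 without Ly6Chi replicate 1 or 3 or Ly6Clow replicate 2 or 3.

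KCs were set against the Ly6Chi and Ly6Clow gates of WT livers to show where resident macrophages stand. Against Ly6Chi cells 4 of 5 genes tested were higher in KCs, where 29.3% of all genes were called higher, and Alas2 and Epor passed the filter through the KC libraries alone. The differences were 5.58 for Alas2 (adjusted p = 2.05e-06), 2.14 for Slc4a1 (adjusted p = 0.00191), 3.17 for Car2 (adjusted p = 3.02e-06) and 3.84 for Epor (adjusted p = 5.2e-07). Car1 differed by 0.15 (adjusted p = 0.776, 95% interval -0.76 to 1.05). Against Ly6Clow cells the same 4 genes were higher, by 4.87 for Alas2 (adjusted p = 3.23e-05), 2.004 for Slc4a1 (adjusted p = 0.0061), 3.14 for Car2 (adjusted p = 1.04e-05) and 3.16 for Epor (adjusted p = 1.72e-05), where 26.0% of all genes were called higher. Car1 differed by 0.55 (adjusted p = 0.264, 95% interval -0.33 to 1.42), having passed the filter through the KC libraries alone. These comparisons share the KC libraries. KCs also held 1213 to 4168 RPM of 6 hepatocyte genes, against 29.7 to 32.2 RPM in WT Ly6Chi cells, with 207 to 485 RPM of T and NK cell genes against 11.9 to 20.2 RPM and 2853 to 5751 RPM of sinusoidal endothelial genes against 77.2 to 110.4 RPM. Replicate 3, the highest KC library in Alas2, Slc4a1, Car1 and Car2, was the highest in all of these lists and the lowest in macrophage genes, at 5641 RPM. Epor went the other way and was lowest in this library, at 14.3 RPM. The part of the hepatocyte, T and NK cell and endothelial transcripts in the result was not tested.

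Ratios between genes within a library do not depend on scaling, and they were set where both genes together had at least 30 reads. Alas2 over Slc4a1 was 0.398 to 0.828 in splenic Rnaset2-/- Ly6Clow cells, 1.61 to 4.51 in liver Rnaset2-/- Ly6Chi cells, 1.96 to 3.64 in liver Rnaset2-/- Ly6Clow cells and 4.25 to 10.7 in KCs. Only the neighbouring ranges of both liver Rnaset2-/- subsets, and that of Ly6Chi cells with KCs, overlapped. Car1 over Car2 was 2.29 to 3.21 across the 6 WT spleen libraries and 0.488 to 1.06 across the 7 Rnaset2-/- spleen libraries, whichever the subset, so it separated the genotypes where Car1 itself overlapped in Ly6Clow cells. In the liver this ratio was 0.395 to 0.642 in Rnaset2-/- Ly6Chi cells, 0.241 to 0.305 in Rnaset2-/- Ly6Clow cells and 0.0185 to 0.0526 in KCs. The 2 WT libraries with enough reads in each liver subset held 0.193 and 0.833 in Ly6Chi and 0.0313 and 0.333 in Ly6Clow cells, on either side of the Rnaset2-/- ranges, so the genotypes were not separate there. These ratios were chosen after the values were known and carry no test.

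**Figure D3:**
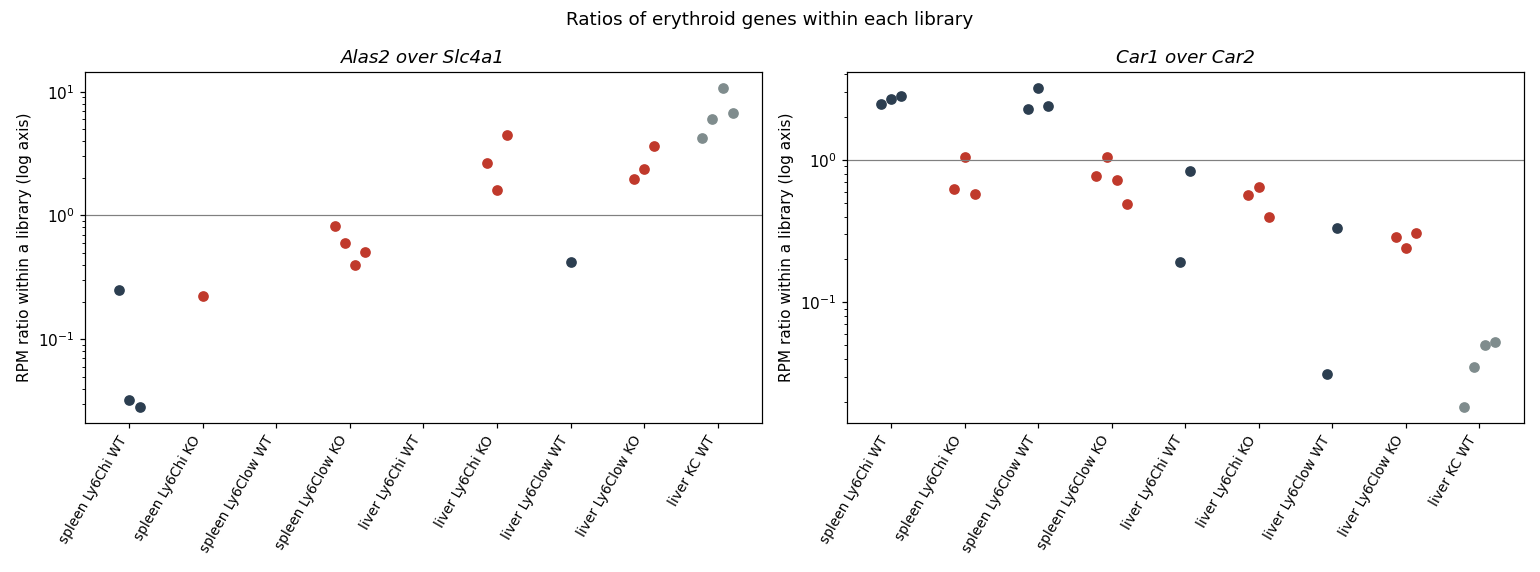
Ratio of RPM between pairs of genes within each library, on a log axis, for the 9 groups, with a point for each library whose pair held at least 30 reads (dark blue, WT; red, Rnaset2-/-, written KO on the axis; grey, KCs). Car1 over Car2 lies above 2 in WT spleen and below 1.1 in Rnaset2-/- spleen, and Alas2 over Slc4a1 is below 1 in the spleen and above 1.6 in KCs and Rnaset2-/- liver.

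The genes most like each of the 7 in pattern were taken by Pearson's r of log2(RPM + 1) across the 29 libraries, which share groups and sorts and so are no independent points. Among the genes most like Alas2 were Sox6 (r = 0.943), an SRY-box factor of erythroid maturation, and Cd38 (r = 0.903). Among those most like Slc4a1 was Tnfrsf25 (r = 0.897). For Car1 the closest were Gm15915 (r = 0.934), Gata1 (r = 0.918) and Atp1b2 (r = 0.884). Gata1 was closest to Car1 (r = 0.918), Add2 (r = 0.898), an adducin of the membrane skeleton, and Atp1b2 (r = 0.883). Car2 was closest to Pou2af1 (r = 0.865), Apol8 (r = 0.862) and Tal1 (r = 0.850), the last a basic helix-loop-helix factor of blood stem cells and erythroid cells. Epor was closest to Itpr3 (r = 0.933), Enpp1 (r = 0.931) and Vstm4 (r = 0.918), none of them in the erythroid lists.

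Among the genes themselves, Alas2 and Slc4a1 ran together (r = 0.892), as did Car1 and Gata1, whereas Alas2 against Car1 gave r = 0.0773 and Alas2 against Gata1 r = 0.151. Epor went with Alas2 (r = 0.808) more closely than with Gata1 (r = 0.161). Car2 lay between them, at r = 0.661 with Alas2, 0.741 with Slc4a1, 0.745 with Epor, 0.729 with Car1 and 0.741 with Gata1, and Slc4a1 against Gata1 gave r = 0.468. These correlations describe the 29 libraries only.

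Sox6 showed the pattern of Alas2 at group level, at low values. It held 0.426 to 7.33 RPM in splenic Rnaset2-/- Ly6Clow cells, 1.08 to 6.30 and 1.32 to 3.70 RPM in Rnaset2-/- liver Ly6Chi and Ly6Clow cells, and 0.749 to 6.99 RPM in KCs. In the other groups it held at most 0.237 RPM.

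Other genes of the red cell program were followed through lists for heme synthesis, membrane and skeleton, transcription factors, terminal maturation, iron uptake and Epor signaling. In splenic Ly6Chi cells of Rnaset2-/- mice, 5 of 8 membrane genes tested fell and 1 rose, where 12.5% of all genes fell and 9.77% rose, with a median difference of -0.98 against 0.01 for all genes. Among those that fell were Aqp1 (-2.29), the water channel, Ank1 (-1.32), the ankyrin that anchors the skeleton, Rhag (-1.28) and Add2 (-1.13). Of 12 transcription factors 3 fell and none rose by limma (median -0.29): Zfpm1 (-2.34), the Gata1 partner known as FOG-1, Gfi1b (-1.48) and Tal1 (-1.19). Of 11 maturation genes 2 fell, Pklr (-2.48), the red cell pyruvate kinase, and Fam46c (-1.34), and Cd24a rose (0.62), with a list median of -0.17. Heme genes did not follow: of 11 tested, 2 rose, Abcb10 (0.60) among them, and none fell by limma, with a median of 0.06. Of 6 iron genes Tfr2 fell (-1.96), and of 8 Epor signaling genes Sh2b3, an adaptor that restrains the pathway, fell (-0.60), with medians of -0.01 and -0.09.

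In splenic Ly6Clow cells the lists held fewer calls and all of them were higher in Rnaset2-/- mice. Over all genes 4.05% were called higher and 4.30% lower. Of 14 membrane genes 3 rose, among them Rhd (2.07) and Dmtn (1.96), with a median of 1.56 against 0.01 for all genes. Of 13 maturation genes 4 rose, among them Hemgn (2.38), Cd24a (2.22) and Blvrb (1.32), with a median of 1.33. The heme list had 1 gene higher of 11, Cpox (1.09), a late enzyme of heme synthesis, and a median of 0.40. Among 12 transcription factors 1 rose, Tal1 (1.31), with a median of -0.05. Of 6 iron genes Slc11a2 (0.73), the divalent metal transporter, rose, and of 9 Epor signaling genes Lyn (1.60) rose, with medians of 0.46 and -0.13.

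In liver Ly6Chi cells 6 of 9 membrane genes tested rose, where 15.7% of all genes rose and 14.9% fell (median 1.47 against 0.01 for all genes), led by Aqp1 (3.77), with Dmtn (1.63) and Add2 (1.61). Of 13 transcription factors 5 rose, among them Zfpm1 (2.56), Tal1 (2.21), Sox6 (1.65) and Lmo2 (1.15), with a median of 0.66. Of 13 maturation genes 5 rose and 1 fell (median 0.95), among them Hemgn (2.10), Mxi1 (2.07) and Trim10 (1.85). Of 11 heme genes Alad (1.48) and Cpox (1.44) rose and Slc25a38 (-0.60) fell, with a median of 0.30. The iron list had 2 of 6 higher, Ireb2 (1.49) and Slc11a2 (0.98), and a median of 0.60. In the Epor signaling list Podxl (2.73) and Stat5b (0.90) rose and Pim1 (-2.96), a kinase induced by cytokines in many blood cells, fell, of 9 tested, with a median of 0.20.

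In liver Ly6Clow cells the directions were mixed, as over all genes, of which 20.2% rose and 22.5% fell. The membrane list had 3 of 8 genes higher, among them Tmcc2 (0.80) and Epb41 (0.72), with a median of 0.67 against 0.01 for all genes. The maturation list had 6 higher and 2 lower of 11 (median 0.71), with Trim10 (2.46) and Blvrb (2.15) among those that rose and Fam46c (-2.09) among those that fell. Of 13 transcription factors 5 fell and 3 rose (median 0.18): Cbfa2t3 (-4.13), Nfe2 (-4.04) and Lyl1 (-2.80), all of which are also used in other blood lineages, fell, and Gfi1b (2.50) rose. Nfe2 stood at 115 to 155 RPM in the WT libraries and 2.37 to 18.6 RPM in the Rnaset2-/- libraries. Of 11 heme genes 3 rose, among them Cpox (1.497) and Tmem14c (1.204), and Slc25a38 (-0.95) fell, with a median of 0.35. Iron genes were higher in 3 of 5, Slc11a2 (2.21), Aco1 (1.47) and Ireb2 (1.02), with a median of 1.02. In the Epor signaling list Lyn (2.35) rose and Pim1 (-3.84), Jak2 (-1.13) and Stat5a (-1.06) fell, of 9 tested, with a median of -0.38.

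**Figure D4:**
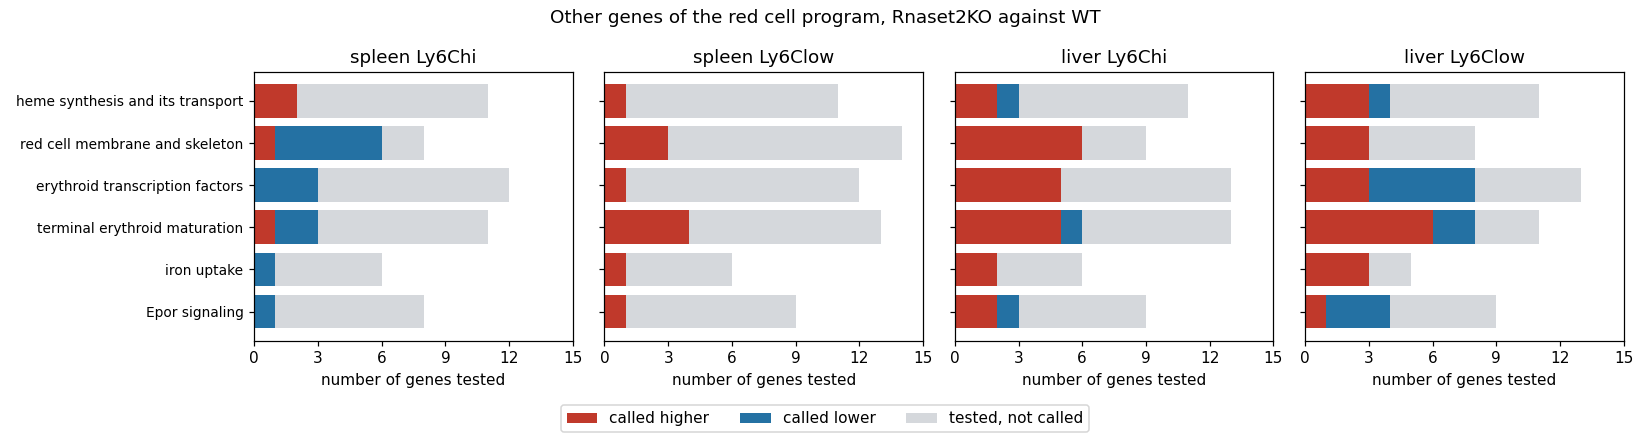
Number of genes tested (horizontal axis) in 6 lists of the red cell program, in 4 panels for the 4 macrophage groups, split into those called higher in Rnaset2-/- mice, called lower, and not called. Calls are lower in most lists of splenic Ly6Chi cells, with 5 of 8 membrane genes lower, and all calls are higher in splenic Ly6Clow cells.

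Markers of other cell types moved with these genes in several groups and against them in others. Neutrophil genes, 9 in number, summed to 39833, 22635, 4352 and 3406 RPM in replicates 1 to 4 of splenic Rnaset2-/- Ly6Clow cells, against 1069 to 2425 RPM in WT, and 7 progenitor genes summed to 664, 208, 43.3 and 38.1 RPM, against 23.7 to 51.0 RPM in WT. Of 9 neutrophil genes tested there 2 rose (list median 2.75), and of 6 progenitor genes none passed by limma (list median 0.57). The replicates high in both lists were those high in Car1, Car2, Epor and Gata1, and their part in the result was not tested. In splenic Ly6Chi cells, where those genes fell, progenitor genes summed to 180 to 185 RPM in WT and 504 to 1259 RPM in Rnaset2-/- mice. Of 6 tested 3 rose and 1 fell. Neutrophil genes there summed to 30459 to 32711 RPM in WT and 32667 to 57387 RPM in Rnaset2-/- mice, and 3 of 9 rose. T and NK cell genes, 9 in number, summed to 637 to 676 RPM in splenic WT Ly6Chi cells and 105 to 216 RPM in the Rnaset2-/- ones, in the same direction as Car1 and Gata1. In liver Ly6Chi cells they summed to 11.9 to 20.2 RPM in WT and 381 to 566 RPM in Rnaset2-/- mice. Sinusoidal endothelial genes, 6 in number, summed to 77.2 to 110.4 RPM in WT and 401 to 2344 RPM in Rnaset2-/- liver Ly6Chi cells, and Aqp1, the largest membrane gene there, is also an endothelial gene. In liver Ly6Clow cells T and NK cell genes summed to 3.85 to 6.01 RPM in WT and 41.5 to 115 RPM in Rnaset2-/- mice, and endothelial genes to 261 to 413 and 1383 to 4199 RPM. Of 6 T and NK cell genes tested there 4 rose, and of 6 endothelial genes 3 rose, and none of either list fell by limma. In splenic Ly6Clow cells endothelial genes summed to 271 to 325 RPM in WT and 1461 to 2202 RPM in Rnaset2-/- mice. Of these 6 genes only 3 were tested there. Pecam1 rose (2.66) and the other 2 did not pass, so this sum does not show a rise of the list as a whole.

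Platelet and megakaryocyte genes, 11 in number and sharing Gata1 as a regulator, summed to 342 to 736 RPM in Rnaset2-/- and 96.9 to 163 RPM in WT liver Ly6Clow cells, and to 436 to 699 RPM in KCs. Of 6 tested in liver Ly6Clow cells 4 rose, Clec1b (3.80) the most, with Ppbp (3.63) and Tubb1 (3.18), and 1, Pf4 (-3.35), fell. The sums do not tell which cell type held these transcripts. In liver Ly6Chi cells this list summed to 12.4 to 21.4 RPM in WT and 76.5 to 110.6 RPM in Rnaset2-/- mice, and all 5 genes tested rose. In splenic Ly6Chi cells the ranges of this list overlapped, at 62.4 to 69.5 RPM in WT and 17.3 to 82.2 RPM in Rnaset2-/- mice. Basophil and mast cell genes, 10 in number, summed to 105 to 112 RPM in WT and 86.7 to 177 RPM in Rnaset2-/- splenic Ly6Chi cells. Of 6 tested there 3 fell, Cma1 (-2.54) the most, and Hdc (0.88) rose. In splenic Ly6Clow cells they summed to 28.1 to 53.0 RPM in WT. The Rnaset2-/- replicates 1 to 4 held 238, 164, 75.3 and 52.3 RPM, and of 6 tested Hdc (2.14) rose. In liver Ly6Chi cells the sums were 13.0 to 26.5 RPM in WT and 21.3 to 130 RPM in Rnaset2-/- mice, and 2 of 6 tested rose. Eosinophil genes, 5 in number, summed to 101 to 113 RPM in WT and 259 to 472 RPM in Rnaset2-/- splenic Ly6Chi cells, where Gata1 and Epor were lower. Of 4 tested there 3 rose and 1, Ccr3 (-1.82), fell. In splenic Ly6Clow cells eosinophil genes summed to 16.1 to 44.1 RPM in WT and 225 to 527 RPM in Rnaset2-/- mice, the direction of Gata1 there. Of 4 tested 2 rose and Ccr3 (-1.31) fell, so these sums do not show a rise of the list as a whole. Genes of red pulp and erythroblast island macrophages, 8 in number, summed to 598 to 645 RPM in WT and 696 to 785 RPM in Rnaset2-/- splenic Ly6Chi cells. More of the 8 fell than rose: Cd163 (-1.94), Hpgd (-1.18) and Siglec1 (-0.89) fell and Treml4 (1.01) rose. The shares of all genes called in each comparison are those given with the erythroid lists. The part of all these lists in the results was not tested.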

How the data were processed

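RNA of sorted macrophages was measured with the Ion AmpliSeq Transcriptome Mouse kit on an Ion Proton, and the authors aligned and counted reads in Torrent Suite with its AmpliSeqRNA plug-in. The deposited table holds RPM (reads of a gene scaled to a common total per library) for 23930 genes in 29 libraries, with mm10 as the build per the labels. Every RPM value came back as a whole number of reads within 0.1 read (100% in each library), and these recovered reads entered the count tests.

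Groups were taken from the labels. The genes, lists and tests were chosen with earlier results of these data known. RPM values were divided by relative log expression factors of the compared libraries, and limma 3.58.1 (R 4.3.3; lmFit, eBayes with trend) was fitted to log2(value + 1) for genes that reached 1 RPM in 3 or more of the libraries compared, two-sided with Benjamini-Hochberg adjustment. In each interaction, the 4 groups shared a fit. Alternatives were an added value of 0.1, no filter, no scaling factors, a fit of all libraries, edgeR 4.0.16 and DESeq2 1.42.0 on the recovered reads, a replicate block, and leaving out each library. The tests were tried on simulated data.

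Beside the genes named by rule, up to 4 genes with the largest change that passed are named from each erythroid list, and the 3 genes highest in Pearson's r for each gene. Some genes that the rule picks are not reported here. In Rnaset2-/- liver alone, all same-numbered Ly6Clow and Ly6Chi libraries correlated above 0.1 in their deviations from the group means (r = 0.527, 0.232 and 0.458). Ly6Clow replicate 3 with Ly6Chi replicate 2 also gave r = 0.293 there, so pairing by number is not certain. All replicate pairs differed beyond sampling noise. By mean chi-square per gene, the splenic WT Ly6Chi libraries differed least, at 6.17 to 8.75, against 11.02 to 211 for pairs in other groups. Tests that use this group rest in part on that narrow spread, which may be technical. Depth limits low levels, and read floors cover counting error only. Promoter windows came from the RefSeq table, which matched 5 of the 9 symbols.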

Additional observations from a re-analysis of the deposited data

Results flagged for a closer look

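In splenic Ly6Clow macrophages of Rnaset2-/- mice, replicate 1 lay far from the other 3 libraries in Alas2 (266 RPM) and Slc4a1 (321 RPM) by Dixon's test. The same test marked Klf1 in KC replicate 1 (0.164 RPM, from 2 reads) and Gata1 in KC replicate 3 (0.961 RPM, from 11 reads). The other 3 KC libraries held 0 reads of Klf1, so any read there would be marked and nothing is drawn from it. In all 4 of 14 tests of a gene in a group of 4 libraries were marked, the Klf1 test included, and chance marks about 1 in 20.

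Genotype changes that differed between organs or subsets, tested as limma interactions, were also marked. In Ly6Chi cells the change in liver minus that in spleen was 5.54 for Alas2, 4.29 for Slc4a1, 7.75 for Car1, 6.08 for Car2, 3.38 for Epor and 2.68 for Gata1 on the log2 scale. In the spleen the change in Ly6Clow minus that in Ly6Chi cells was 4.56 for Alas2, 5.83 for Slc4a1, 4.27 for Car1, 4.29 for Car2, 2.13 for Epor and 2.83 for Gata1. Liver Rnaset2-/- libraries differ from all other Ly6Chi libraries in their Xist and Y-linked levels, so sex and the organ difference cannot be told apart. The same holds for the depletion of cells with the erythroid antigen, described for the spleen alone.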

How the results depend on the processing

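Of 265 recomputed counts of called genes 238 stayed within 1.5 times, and of 275 recomputed differences of single genes 253 kept direction and side of the threshold. The counts go by number and not by which genes were called. In splenic Ly6Clow cells DESeq2 called Car2 and Gata1 and gave Alas2 and Slc4a1 no adjusted p, and its count is held as unchanged. Calls higher in splenic Ly6Clow cells went from 2 to 1 with no filter, 4 in the fit of all libraries and 4 with the replicate block (Car2 2.40, adjusted p = 0.03, and Gata1 1.64, adjusted p = 0.0416, were added). Between Ly6C subsets, the fit of all libraries gave 1 of 4 calls in WT spleen, and no filter gave 1 of 2 in Rnaset2-/- liver. The subset interaction in the liver went from 0 to 2 without scaling and to 1 with the replicate block. The block changed no other genotype call. Outside Rnaset2-/- liver, same-numbered libraries did not all correlate above 0.1.

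Leaving out single libraries gave 3 to 5 lower calls in splenic Ly6Chi cells and, for higher calls, 0 to 3 in splenic Ly6Clow, 3 to 6 in liver Ly6Chi and 4 to 5 in liver Ly6Clow cells. Between subsets the counts were 2 to 4 in WT spleen, 4 to 6 in Rnaset2-/- spleen, 0 in WT liver and 0 to 3 in Rnaset2-/- liver; for KCs they stayed at 4. Interactions gave 5 to 6 (organ, Ly6Chi), 0 to 1 (organ, Ly6Clow), 4 to 6 (subset, spleen) and 0 to 1 (subset, liver). Car1 in splenic Ly6Clow cells reversed to -0.03, -0.42 and -0.16 without WT replicate 3, Rnaset2-/- replicate 1 and Rnaset2-/- replicate 2, in a range of -0.42 to 0.81. Where fewer libraries reached the filter, fewer genes were tested; for the other changes the cause was not tested.

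Without scaling factors the median of all genes moved to 0.31 in liver Ly6Chi cells, 0.67 and 0.55 for KCs against Ly6Chi and Ly6Clow cells, 0.35 for the organ interaction in Ly6Chi cells, 0.11 for the spleen interaction, -0.26 for the liver interaction, and -0.13, 0.11 and -0.17 between subsets in WT spleen, WT liver and Rnaset2-/- liver; the counts of called genes changed only as given. Higher against lower calls over all genes then went from 1717 and 1634 to 2661 and 905 in liver Ly6Chi cells, from 1016 and 1295 to 733 and 1620 in splenic Ly6Chi cells, from 3674 and 3171 to 6169 and 1335 for KCs against Ly6Chi cells, from 3254 and 2999 to 5477 and 1385 for KCs against Ly6Clow cells, from 1451 and 2079 to 1060 and 2494 between subsets in WT spleen, from 612 and 566 to 789 and 418 in WT liver, and from 953 and 900 to 667 and 1052 in Rnaset2-/- liver. For the interactions they went from 2005 and 1818 to 3148 and 841 (organ, Ly6Chi), from 905 and 691 to 1132 and 445 (subset, spleen) and from 641 and 662 to 340 and 879 (subset, liver). DESeq2 gave no adjusted p to Alas2 and Slc4a1 in splenic Ly6Clow cells, nor between subsets in Rnaset2-/- spleen. With Spearman's rho, Epor shared 1 of its 3 most similar genes and each of the other 5 genes shared 2. Levels below 3 reads (0.142 to 0.268 RPM) limit Klf1, Gata1 in the liver and Alas2 in WT cells.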
